A study of Mus musculus with 8 samples.

Results

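The members described here are 10 genes of the immediate early response, Fos, Fosb, Jun, Junb, Jund, Egr1, Egr2, Egr3, Atf3 and Nr4a1, chosen by name as transcription factors of the AP-1, Egr, ATF and Nr4a families. All 10 were measured among the 19938 genes of the table, each by a single probe set that the platform annotation pairs with that gene alone. Expression was measured in mammary tissue of virgin female mice of a C57BL/6 X FVB background, 5 weeks old, to ask what loss of the transcription factor Sox9 changes in the gland during puberty. All 8 mice carried MMTV-Cre, a recombinase under the mouse mammary tumour virus promoter that works in mammary epithelial cells. Both alleles of Sox9 were floxed in 4 mice (flox/flox), and the other 4, the controls, had a floxed and a wild-type allele (flox/+), so that no group lacked Cre or the floxed allele. The tissue came from around the lymph nodes within the fourth gland and was taken whole, with fat, stroma, vessels and immune cells beside the ducts, and RNA from each gland was put on an Affymetrix Gene 1.0 ST array of its own.

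Immediate early genes are transcribed within minutes of a stimulus, without new protein synthesis, and their messages are short-lived. Growth factors acting through the MAP kinases ERK and the serum response factor, and hormones acting through cyclic AMP and CREB, are classical inducers, and so are stress and mechanical handling of tissue. FOS and JUN family proteins pair through leucine zippers to form AP-1, EGR proteins bind GC-rich sites through zinc fingers, and NR4A1 is a nuclear receptor that acts without a known circulating hormone. In bulk tissue a lower share of a cell type and less RNA per cell cannot be told apart.

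None of the 10 genes passed the test between the genotypes over all genes, and 3 of them, Egr1, Egr2 and Nr4a1, varied several-fold from gland to gland within a genotype. Egr1 and Egr2 were both lowest in flox/flox replicate 1 and both highest in flox/+ replicate 1, while Nr4a1 was highest in the very gland where Egr1 and Egr2 were lowest. The other 7 genes spread by less than 1.5-fold over all 8 glands. Of these, Fos, Fosb, Junb and Atf3 read near or below the median of an array, where signal over background limits what a change can show. Fosb was the single member whose values did not overlap between the genotypes, lower in flox/flox, by a small amount.

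Promoter sequences are shown for 4 members, as RefSeq gives them for build GRCm38.p6: Egr2 and Nr4a1 as members with a large spread between glands, Fosb as the member without overlap, and Fos as the founding gene of the class. Each window runs from 250 bases before to 50 bases after an annotated start and is written 5′ to 3′ along the gene's strand, and capitals mark a motif match. Egr2 is shown at 2 of its 5 annotated starts.
Egr2 (chr10:67537316-67537615, + strand): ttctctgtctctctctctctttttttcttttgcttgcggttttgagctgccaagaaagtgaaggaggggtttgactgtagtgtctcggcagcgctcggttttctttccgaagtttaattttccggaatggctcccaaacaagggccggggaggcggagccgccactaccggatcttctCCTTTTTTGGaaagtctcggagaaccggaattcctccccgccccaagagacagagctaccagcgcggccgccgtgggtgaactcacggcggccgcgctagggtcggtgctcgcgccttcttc
Egr2 (chr10:67537619-67537918, + strand): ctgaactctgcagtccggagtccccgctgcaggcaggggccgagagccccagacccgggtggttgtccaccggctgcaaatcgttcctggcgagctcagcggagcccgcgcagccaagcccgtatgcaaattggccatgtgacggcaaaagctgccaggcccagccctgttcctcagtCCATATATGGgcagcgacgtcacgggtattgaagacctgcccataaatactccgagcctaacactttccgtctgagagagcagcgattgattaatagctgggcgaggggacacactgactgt
Nr4a1 (chr15:101266596-101266895, + strand): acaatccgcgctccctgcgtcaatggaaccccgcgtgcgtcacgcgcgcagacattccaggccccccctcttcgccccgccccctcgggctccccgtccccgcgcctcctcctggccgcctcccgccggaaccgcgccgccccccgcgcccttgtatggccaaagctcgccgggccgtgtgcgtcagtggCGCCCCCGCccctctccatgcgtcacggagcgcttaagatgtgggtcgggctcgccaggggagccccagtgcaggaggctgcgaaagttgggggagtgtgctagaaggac
Fosb (chr7:19309996-19310295, - strand): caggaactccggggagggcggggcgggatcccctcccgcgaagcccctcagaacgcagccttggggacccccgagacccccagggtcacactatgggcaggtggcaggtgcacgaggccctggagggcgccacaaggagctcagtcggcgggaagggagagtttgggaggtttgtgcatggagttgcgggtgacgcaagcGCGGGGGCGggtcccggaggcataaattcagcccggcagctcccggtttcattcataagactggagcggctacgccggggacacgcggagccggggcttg
Fos (chr12:85473640-85473939, + strand): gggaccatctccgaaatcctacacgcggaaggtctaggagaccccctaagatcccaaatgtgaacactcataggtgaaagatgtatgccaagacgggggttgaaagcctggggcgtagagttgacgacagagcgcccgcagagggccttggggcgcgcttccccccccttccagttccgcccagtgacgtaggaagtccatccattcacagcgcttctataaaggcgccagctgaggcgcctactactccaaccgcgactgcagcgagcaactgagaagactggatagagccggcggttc

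The windows of 8 members, 12 in all, were searched on both strands for the CArG box, which is the core of the serum response element, the cyclic AMP response element TGACGTCA, the AP-1 site TGANTCA, the NR4A site AAAGGTCA and the EGR site GCGGGGGCG. No matches overlapped each other. Egr2 held a CArG box in 4 of its 5 windows, CCTTTTTTGG starting 72 bases before the start in the first one printed and CCATATATGG, likewise 72 bases before the start, in the second one, and the remaining 2 windows with a match overlap the second and hold the same box. Egr1 and Egr3 were the members not searched. A CArG box occurs in 1.63% of all 32851 windows in the RefSeq table. The EGR site was matched in Fosb, 50 bases before the start, and on the opposite strand in Nr4a1, as CGCCCCCGC beginning 60 bases before the start, against 2.91% of all windows. The cyclic AMP response element (1.79% of all windows), the AP-1 site (7.81%) and the NR4A site (1.51%) were matched in none of the 12 windows, and Fos, Jun, Junb, Jund and Atf3 held no match. A match is a string of letters in a short window and was not tied to binding in these glands. Only full matches counted, so that near spellings of the cyclic AMP response element, TGACGTAG in the Fos window and TGACATCA in the Jun window, did not. A site outside the window would also be missed, so the absence of a match does not show that a gene lacks the element.

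Of the 10 members, 0 passed a limma adjusted p of 0.05, against 0.0401% of all genes, and 1, Fosb, had an unadjusted p under 0.05, against 10.3% of all genes, and lay lower, against 5.46% of all genes in that direction. That count was 2 when arrays were centred on their medians or taken without further normalization, where Jun joined Fosb. It was also 2 without flox/+ replicate 3 (Jun), flox/+ replicate 4 (Egr2), flox/flox replicate 1 (Nr4a1) or flox/flox replicate 4 (Egr3). The 10.3% belongs to the main fit, and the share of all genes in these other fits is not given here. The adjusted p of the members lay between 0.330 and 0.921. Differences are on the log2 scale after an offset of 16, with a positive sign where flox/flox glands were higher, and 3 members lay higher in flox/flox and 7 lower, where 47.4% of all genes lay higher. The median difference over the members was -0.13, beside -0.01 over all genes, without a test of the list. Leaving out a gland gave a median of -0.04 for flox/+ replicate 1, -0.05 for flox/flox replicate 1 and -0.08 for flox/flox replicate 4. For the remaining glands it lay between -0.16 (flox/+ replicate 4) and -0.11 (flox/+ replicate 3). The deposited values come without detection calls, so the dimmer members cannot be told from background. Fosb (123 to 167), Junb (94.5 to 128) and Atf3 (106 to 140) lay near or below the deposited array medians of 159 to 178. Fos (161 to 205) lay near or above them. In the alternative without the lowest 1 in 3 genes by mean level, Junb and Atf3 dropped out of the test.

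**Figure D1:**
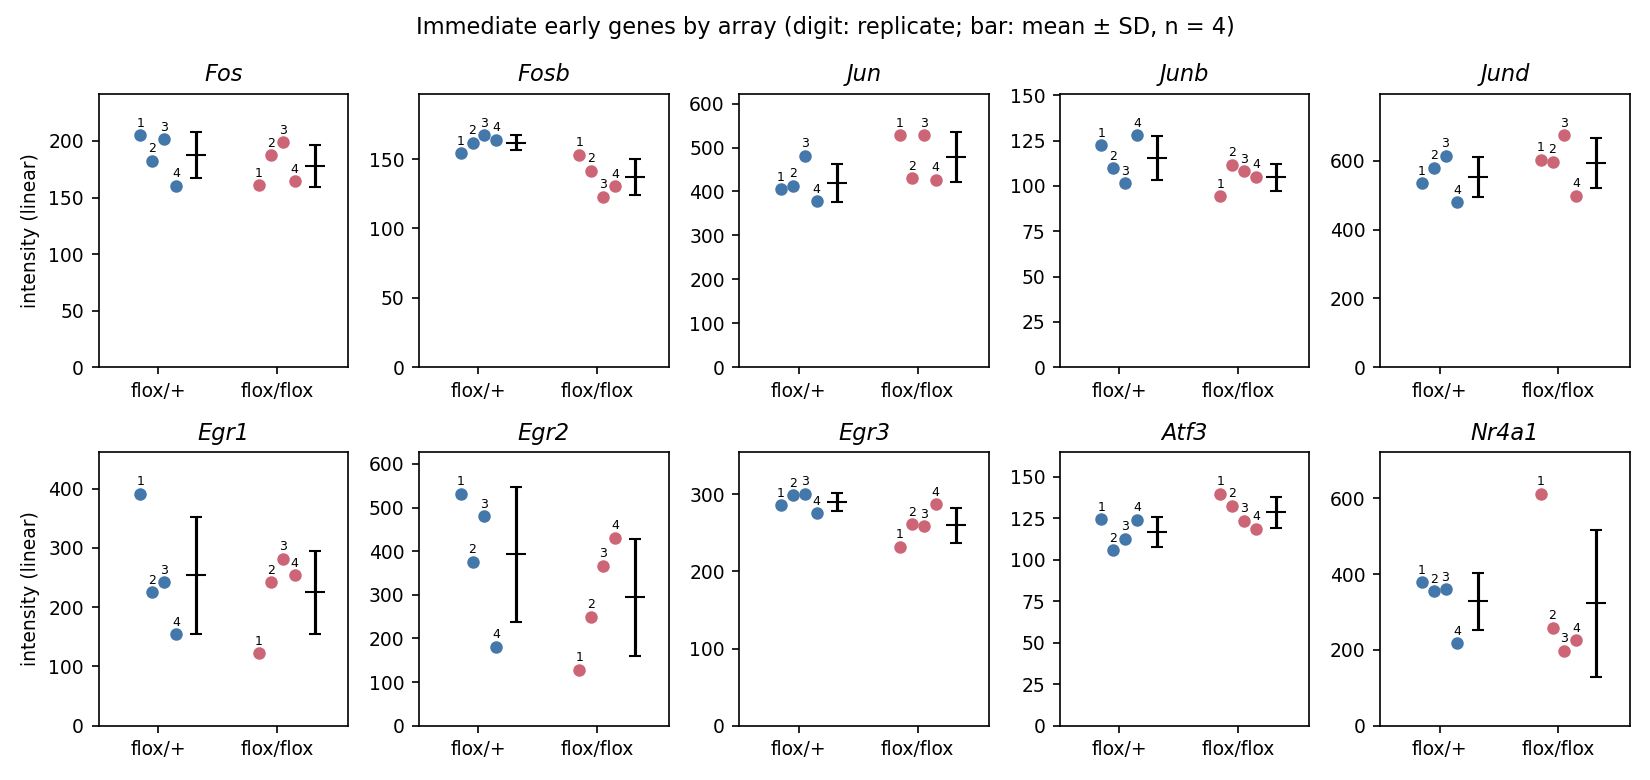
Intensity of the 10 members on a linear scale in each gland (points, numbered by replicate, 4 per genotype), with the mean and SD of each genotype as black bars. Fosb is the only panel without overlap between the genotypes, and Egr1, Egr2 and Nr4a1 are the panels with a wide spread.

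**Figure D2:**
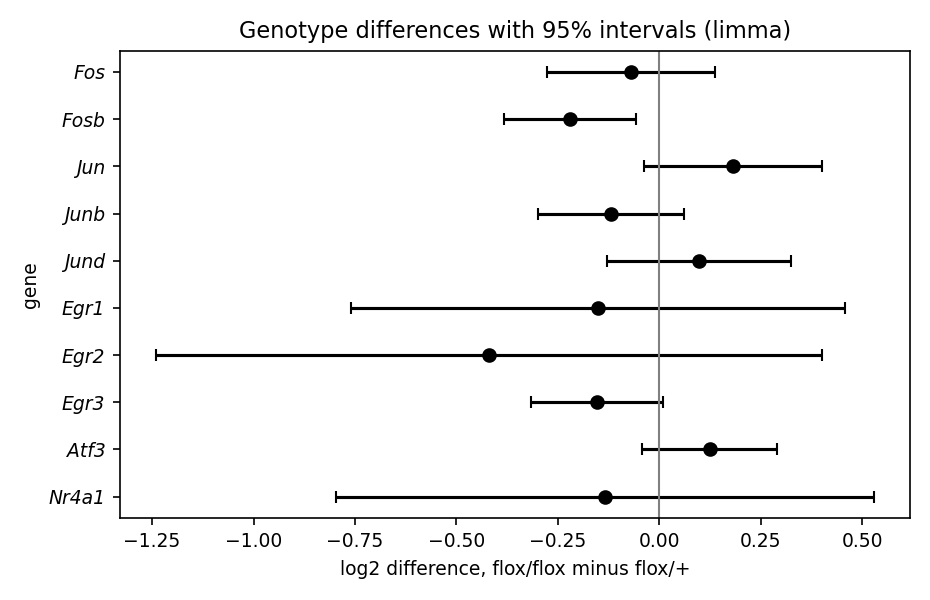
Log2 difference between flox/flox and flox/+ glands for each member (points), with limma's 95% interval (bars) and a line at 0. The interval of Fosb alone leaves out 0, and those of Egr1, Egr2 and Nr4a1 are the widest of the 10.

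Fos, the partner that gives AP-1 its strength as an activator, read 205, 183, 202 and 161 in flox/+ replicates 1 to 4 and 161, 187, 199 and 164 in flox/flox replicates 1 to 4. The groups overlapped over nearly their whole range. The means were 187 ± 20.4 in flox/+ and 178 ± 18.3 in flox/flox (SD, n = 4 each), and the log2 difference was -0.07 ± 0.09 (SE), with a 95% interval of -0.28 to 0.14 and a limma adjusted p of 0.843. That interval holds changes between 0.826-fold and 1.10-fold.

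Fosb, a close relative of Fos that also gives rise to the long-lived splice form ΔFosB, read 154, 162, 167 and 164 in the controls and 153, 142, 123 and 130 in the flox/flox glands. Every flox/flox gland lay below every control, although the highest of them, replicate 1, came within about a unit of the lowest control. The means were 162 ± 5.48 and 137 ± 13.2 (SD, n = 4 each), a level of 84.7% of the control. The log2 difference was -0.22 ± 0.07 (SE), with a 95% interval of -0.38 to -0.06. Its exact permutation p was 0.0286, 2-sided, the smallest that 4 against 4 arrays allow, and limma's unadjusted p of 0.0133 became 0.330 over all genes. Values without overlap were found for 1 of the 10 members and for 5.89% of all genes, in the lower direction for 3.16%. The probe set does not tell the splice forms of Fosb apart, and its values lay near or below the array medians of 159 to 178.

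Jun encodes a protein that pairs with FOS proteins to form AP-1. It read 405, 413, 481 and 378 in the controls and 528, 430, 528 and 427 in the flox/flox glands. Only flox/+ replicate 3 reached into the flox/flox range. The means were 419 ± 44.1 and 478 ± 57.4 (SD, n = 4 each), with a log2 difference of 0.18 ± 0.10 (SE), a 95% interval of -0.04 to 0.40 and a limma adjusted p of 0.568. Without flox/+ replicate 3 the values of Jun did not overlap, and the limma adjusted p stayed above 0.05.

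Junb, which can hold back JUN on some targets, read 123, 110, 101 and 128 in flox/+ and 94.5, 112, 108 and 105 in flox/flox. The means were 115 ± 12.1 and 105 ± 7.41 (SD, n = 4 each), giving a log2 difference of -0.12 ± 0.08 (SE, 95% interval -0.30 to 0.06). Jund, the member of the family that many cells make at a steady level, read 536, 581, 615 and 480 in flox/+ and 603, 598, 675 and 499 in flox/flox. Its log2 difference was 0.10 ± 0.10 (SE, 95% interval -0.13 to 0.32). Both genes overlapped between the genotypes, and for both flox/+ replicate 4 held an extreme, the highest value of Junb and the lowest of Jund.

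Atf3, a stress-induced factor that pairs with JUN proteins and often represses, read 124, 106, 113 and 124 in the controls and 140, 133, 124 and 119 in the flox/flox glands. The lower flox/flox values lay inside the control range. The means were 117 ± 9.07 and 129 ± 9.34 (SD, n = 4 each), and the log2 difference of 0.12 ± 0.08 (SE, 95% interval -0.04 to 0.29) had a limma adjusted p of 0.612.

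Egr1, the zinc finger factor that answers growth factors in most tissues, read 392, 225, 242 and 155 in the controls and 122, 242, 282 and 254 in the flox/flox glands. Its lowest gland, flox/flox replicate 1, and its highest, flox/+ replicate 1, were 3.21-fold apart, and the remaining flox/flox glands lay within the control range. The means were 254 ± 99.5 and 225 ± 70.6 (SD, n = 4 each), with a log2 difference of -0.15 ± 0.28 (SE), a 95% interval of -0.76 to 0.46 and a limma adjusted p of 0.893. The difference changed sign without flox/+ replicate 1 (0.07) or flox/flox replicate 1 (0.10), so that these glands set its direction.

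Egr2, known from myelinating Schwann cells and from lymphocytes, read 532, 376, 481 and 181 in flox/+ and 129, 250, 367 and 431 in flox/flox. Its extremes lay in the same glands as those of Egr1 and were 4.13-fold apart. The means were 393 ± 155 and 294 ± 133 (SD, n = 4 each). The log2 difference was -0.42 ± 0.37 (SE), with a 95% interval of -1.24 to 0.40 and a limma adjusted p of 0.746, so that a fall to 0.423-fold and a rise to 1.32-fold both lie inside the interval. Without flox/flox replicate 1 the difference was -0.09, and without flox/+ replicate 4 it was -0.74, neither past the limma threshold.

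Egr3, which shares the zinc finger domain and is itself switched on by EGR1 in some cells, read 286, 299, 301 and 276 in the controls and 232, 261, 259 and 287 in the flox/flox glands. Here flox/flox replicate 4 alone lay inside the control range. The means were 290.2 ± 11.7 and 260 ± 22.6 (SD, n = 4 each), and the log2 difference was -0.15 ± 0.07 (SE), with a 95% interval of -0.32 to 0.01 and a limma adjusted p of 0.515. Without flox/flox replicate 4 the values did not overlap, and the adjusted p stayed above 0.05.

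Nr4a1, the orphan nuclear receptor also called Nur77, read 379, 355, 361 and 218 in flox/+ and 612, 258, 198 and 226 in flox/flox. Flox/flox replicate 1 lay far above the other 7 glands, and flox/+ replicate 4 lay below the other controls and among the remaining flox/flox glands. The means were 328 ± 74.3 and 324 ± 194 (SD, n = 4 each), and the log2 difference was -0.13 ± 0.30 (SE), with a 95% interval of -0.80 to 0.53 and a limma adjusted p of 0.921. Without flox/flox replicate 1 the difference was -0.48, with a limma unadjusted p under 0.05 and an adjusted p of 0.462, and without flox/flox replicate 3 it was 0.04.

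The spread between glands of a genotype set these genes apart from each other. The SD within genotype on the log2 scale, pooled over both genotypes, was 0.69 for Egr2, 0.56 for Nr4a1 and 0.51 for Egr1, beside a median of 0.12 over all genes. Of the 19938 genes, 43 had a larger SD than Egr2, 81 than Nr4a1 and 101 than Egr1, so that these 3 members lay in the top 1% of all genes. The other 7 members had SDs from 0.09 for Egr3 and Fosb to 0.16 for Jund, between the 27.6th and the 75.4th percentile of all genes. Without flox/flox replicate 1, Egr2 alone stayed in the top 1%, with Egr1 at the 98.8th and Nr4a1 at the 96.4th percentile and SDs of 0.40 and 0.30. In the fits that left out another gland the same 3 genes lay in the top 1%. The SD was examined after the values had been seen and has no test.

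**Figure D3:**
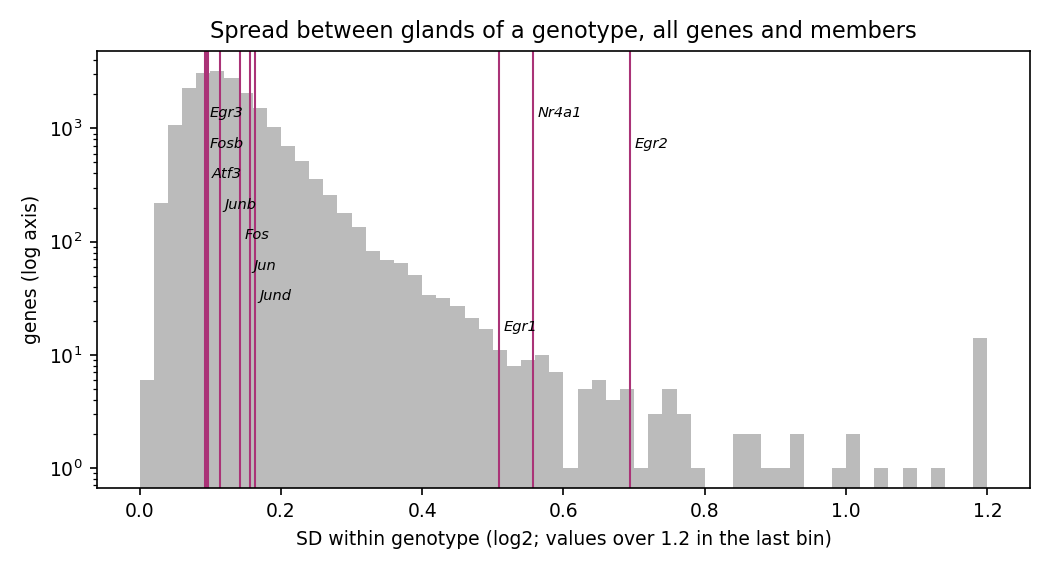
Histogram of the SD within genotype (log2 scale) over all 19938 genes, with the gene count on a log axis and the members as vertical lines. Egr1, Egr2 and Nr4a1 lie at 0.51, 0.69 and 0.56 in the right tail, and the other 7 members lie at or below 0.16, in the body of the distribution.

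The wide spread ran in different directions in the same glands. Relative to the mean of each gene over the 8 arrays, flox/flox replicate 1 stood at -0.82 for Egr1 and -1.19 for Egr2 but at 0.97 for Nr4a1, on the log2 scale. Flox/+ replicate 4 was low for all 3, at -0.51, -0.74 and -0.46. Flox/+ replicate 1 was high for all 3, at 0.74, 0.73 and 0.30. Flox/flox replicate 1 held the highest value of 3 members (Jun, Atf3 and Nr4a1) and the lowest of 4 (Junb, Egr1, Egr2 and Egr3), while flox/flox replicates 2 and 4 held no extreme of any member. The mean over all 10 centred members lay between -0.20 and 0.20 in the controls and between -0.11 and 0.02 in the flox/flox glands, so the genotypes overlapped and no gland had all members high or all low.

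**Figure D4:**
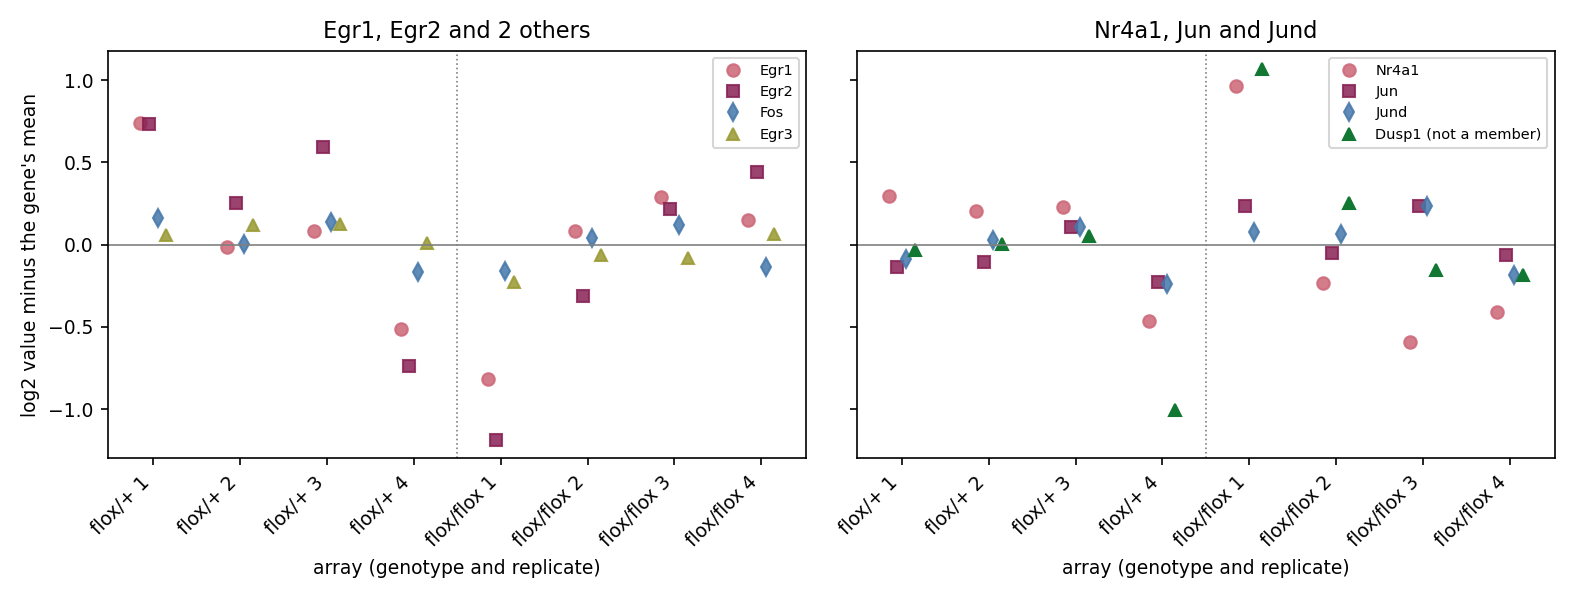
Log2 value minus the gene's mean in each of the 8 glands (genotype and replicate along the axis), for Egr1, Egr2, Fos and Egr3 on the left and Nr4a1, Jun, Jund and the non-member Dusp1 on the right. In flox/flox replicate 1 Egr1 and Egr2 are at -0.82 and -1.19 and Nr4a1 is at 0.97.

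How alike a pair of genes runs over the 8 glands was measured as the mean absolute difference of their z-scores, which is 0 for the same pattern. Egr1 and Egr2 were 0.36 apart, Fos was 0.45 from Egr1 and Egr3 was 0.49 from Egr2. Nr4a1 was 1.11 from Egr1 and 0.96 from Egr2, and its nearest member was Fosb at 0.69. These are descriptions over 8 glands.

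Among the other 238 genes of the lists used here, the one closest to Egr1 (0.25) and to Egr2 (0.31) was Spry4, a Sprouty protein that is induced by ERK signalling and dampens it. It read 410, 292, 377 and 274 in flox/+ and 248, 329, 350 and 347 in flox/flox, with the lowest value again in flox/flox replicate 1 and the highest in flox/+ replicate 1. Dusp6, a phosphatase of ERK, was 0.46 from Egr2, with 816, 670, 777 and 470 in flox/+ and 644, 609, 751 and 714 in flox/flox. Its lowest gland was flox/+ replicate 4, the gland with the second lowest Egr1 and Egr2. Pgr, the progesterone receptor of hormone-sensing luminal cells, was 0.49 from Egr2 and read 661, 536, 706 and 263 in flox/+ and 382, 544, 587 and 505 in flox/flox. In between came Batf2, a factor of the AP-1 superfamily (0.35 from Egr2), and the skeletal muscle genes Acta1 (0.39) and Mylpf (0.45). Spry4, Dusp6 and Pgr did not pass the limma test between genotypes. Among all brighter genes the closest to Egr1 was Ran, a GTPase of nuclear transport (0.22), with Spry4 the 5th closest. The closest to Egr2 was the nucleotide enzyme gene Dctd (0.16). The 10th closest to Egr2 of those 9963 genes lay at 0.28, nearer than Spry4, Dusp6 or Pgr. This comparison with Egr1, Egr2 and Nr4a1 was added after their spread had been seen.

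Nr4a1 ran with other genes. The closest of the listed genes was Pecam1, an adhesion protein of endothelial cells, at 0.33, with 859, 937, 985 and 790 in flox/+ and 1058, 804, 817 and 797 in flox/flox. It was followed by the myelin gene Mbp (0.43), the growth arrest gene Gadd45g (0.49), Sik1, a kinase induced by cyclic AMP (0.51), the survival gene Mcl1 (0.52), Ppbp and Ccn1 (both 0.53) and the MAP kinase phosphatase gene Dusp1 (0.56). Dusp1 read 780, 802, 830 and 390 in flox/+ and 1691, 957, 716 and 701 in flox/flox, so that its highest and lowest glands were flox/flox replicate 1 and flox/+ replicate 4. Dusp1, like Nr4a1, lay among the 1% of genes with the largest SD within genotype (0.55). Among all brighter genes the closest to Nr4a1 was Mir423 (0.25), and Pecam1 was the 7th closest. The 10th closest of those 9963 genes lay at 0.38, nearer than Mbp, Gadd45g, Sik1, Mcl1, Ppbp, Ccn1 or Dusp1.

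In flox/flox replicate 1, where Nr4a1 was highest and Egr1 and Egr2 were lowest, marker lists of several cell types also stood at an extreme. The mean z-score of 9 endothelial markers was 1.27 there, beside -0.82 to 0.22 in the other 7 glands, and that of 8 brown adipocyte markers was 1.64, beside -1.21 to 0.57. The mean z-score of 11 luminal markers was -0.98 there, the lowest of the 8 glands, beside -0.80 in flox/+ replicate 2. The summed intensity of the endothelial markers ran from 6108 to 6663 in flox/+ and from 5756 to 7591 in flox/flox, that of the brown adipocyte markers from 4844 to 9019 and from 7076 to 13003, and that of the luminal markers from 12745 to 15145 and from 12149 to 15100. The mean z-score of 7 macrophage markers was also highest there (0.92), beside 0.86 in flox/+ replicate 4. So was that of 5 red cell and platelet markers (0.94), beside 0.92 in flox/+ replicate 3. That of 12 granulocyte and mast cell markers was 0.90 there, beside at most 0.39 elsewhere. The 13 glucocorticoid targets stood at 0.99, beside at most 0.54, and the 46 further immediate early genes at 0.52, beside at most 0.23. Dusp1 and Sgk1 count in both of these lists. The summed intensity ran from 4719 to 7930 in flox/+ and from 5657 to 8455 in flox/flox for the macrophage markers, from 2792 to 3188 and from 3054 to 3869 for the granulocyte and mast cell markers, and from 977 to 1355 and from 933 to 1232 for the red cell and platelet markers. None of these markers was at 0 in any gland. In flox/+ replicate 4, the control with the lowest Egr1, Egr2 and Nr4a1, the mean z-score of 13 heat shock genes was -1.50, beside -0.27 to 0.88 in the other 7 glands. The part of these lists in the values of Egr1, Egr2 and Nr4a1 was not tested.

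By the rule that looked for genes most like the members as a group, the nearest of 9963 brighter genes was Slc5a5, the sodium iodide symporter, 0.18 from the mean of the members, with 1062, 695, 925 and 390 in flox/+ and 426, 512, 642 and 658 in flox/flox. Next came Tuba3a (0.21), Zbtb24 (0.22), Gm4750 (0.23), Gmds (0.25), Gtf3c6 (0.26), Bub3 (0.27), Dnajb11 (0.28), Ubxn2b (0.29) and Tox2 (0.30). The mean of the members leans on Egr1, Egr2 and Nr4a1, whose swings were the widest. For Fos alone the nearest genes were the coat proteins of secretory vesicles Sec23b (0.22) and Sec13 (0.27), followed by Fkbp1a (0.27), Pth1r (0.28) and Rap2c (0.29).

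The wider families of these factors held no gene past the test between the genotypes. Of 19 other AP-1 and CREB/ATF factors 0 passed the limma threshold over all genes, with a median difference of 0.01. At an unadjusted p under 0.05, against 10.3% of all genes, there were 2, Mafk, a small MAF protein (0.21 ± 0.08, SE), and Fosl1, which encodes the FOS relative FRA1 (-0.23 ± 0.09). The next in order of p were Atf1 (-0.16) and Atf4, the factor of the integrated stress response (0.17). Of 6 other genes of the Egr and Nr4a families and their corepressors 0 passed, with a median of -0.03. The corepressors of EGR proteins, Nab1 (0.20 ± 0.07, SE) and Nab2 (-0.17 ± 0.08), had differences of opposite sign, Nab1 with an unadjusted p under 0.05, and Egr4 lay at -0.13 and Nr4a2 at 0.10.

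Of 46 further immediate early genes 0 passed the limma threshold over all genes, and 5 had an unadjusted p under 0.05, against 10.3% of all genes, a share near that background. All 5 lay higher in flox/flox, against 4.8% of all genes in that direction. They were the C/EBP factors Cebpd (0.39 ± 0.11, SE) and Cebpb (0.35 ± 0.10), the Krüppel-like factors Klf4 (0.48 ± 0.14) and Klf6 (0.31 ± 0.10) and the pseudokinase Trib1, which sends C/EBP proteins to breakdown (0.21 ± 0.09). Their limma adjusted p was 0.265 to 0.450, and the median over the list was 0.06. Among 16 regulators upstream, 0 passed and 1, the p38 kinase gene Mapk14 (0.22 ± 0.06), had an unadjusted p under 0.05, while Mapk9 lay at 0.13, Spry1 at -0.12 and Elk3 at -0.08. Of 13 heat shock genes, which mark another kind of stress response, 0 passed and 0 had an unadjusted limma p under 0.05, and those with the smallest p, Bag3, Hspb1, Hspd1 and Hspa1a, lay between 0.10 and 0.15.

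Clock genes and glucocorticoid targets, which vary with the hour and with stress, gave larger median differences than the members. Of 16 clock genes 0 passed the limma threshold, and 7 were higher and 1, Arntl (-0.57), lower at an unadjusted p under 0.05, against 4.8% and 5.46% of all genes in those directions. The median difference was 0.34, with Ciart (1.51), Per2 (0.71), Hlf (0.45) and Dbp (0.36) in front among the higher ones. Of 13 glucocorticoid targets 0 passed, and 4, Fkbp5 (1.02), Zbtb16 (0.96), Tsc22d3 (0.82) and Klf9 (0.41), were higher and 1, Angptl4 (-0.50), lower at that level, against the same 4.8% and 5.46% of all genes. The median over the list was 0.38. Dusp1 and Sgk1 belong to this list and to the immediate early list, and Per1 belongs to this list and to the clock genes. The hour of collection is not given in the labels, and its part in any of these values was not tested.

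Sox9 read between 287 and 356 in flox/flox and between 366 and 448 in flox/+, lower in all 4 flox/flox glands, with an exact permutation p of 0.0286, 2-sided, and a limma adjusted p of 0.256. Whether its probes lie in the deleted part is not given. Over all genes 8 passed the limma threshold, 6 higher and 2 lower in flox/flox. The summed intensity of 8 basal markers ran from 8082 to 10905 and that of 9 white adipocyte markers from 40035 to 47902 over the 8 glands, none of them at 0. B cell markers (mean z-score 2.37) and T cell markers (2.08) stood out in flox/+ replicate 2, a gland that held the lowest value of 1 member, Atf3. The deposited intensities had medians of 159 to 178 per array, and precision is limited by how many arrays there are.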

How the data were processed

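The samples were 8 mammary glands, 4 flox/flox and 4 flox/+, on 1 array each, grouped by genotype as the titles give it. The submitters' processing notes name PLIER and Affymetrix Expression Console 1.0, and the deposited intensity values are linear. How background was corrected and arrays were normalized is not given in the sources used here. Of 35557 probe sets 21789 had 1 gene symbol, 1621 several and 12147 none, and 21698 of the first kind matched RefSeq GRCm38.p6, with 0 symbols changed. The brightest probe set on average stood for a gene, which left 19938. Values were offset by 16, taken to log2 and quantile normalized, since the 10th, 50th and 90th percentiles spread by 0.245, 0.145 and 0.105 between arrays, above a tolerance of 0.1. Intensities in the text are taken back from this scale. Linear models in limma 3.58.1 under R 4.3.3, moderated by eBayes, gave the genotype differences, with Benjamini-Hochberg adjustment over all genes and a threshold of 0.05. The limma script was tested on simulated arrays. Exact permutation tests ran over the 70 assignments of the arrays.

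The members and lists were chosen with earlier results of these data known. The rule for names took all members, from each other list of genes up to 4 with the smallest p and any counted at 5 or fewer, and the genes with the smallest mean absolute z-score difference. Genes named beside Egr1, Egr2 and Nr4a1 were chosen after their values were seen. The labels do not say that the replicates share litters or days, nor that they differ in more than the animal, and p-values measure the spread between these glands. The tissue identifiers of the controls begin with a letter of their own, whose meaning is not given, so that any cohort it may mark cannot be told apart from the genotype. Samples sharing a replicate number did not deviate together, with correlations of -0.20, 0.06, 0.21 and -0.09 across genes. Median log2 differences between pairs of arrays lay between 0.102 and 0.157, with 0 identical pairs. No slide or scan information was used. Alternatives were no quantile step, median centring, an offset of 1 or 64, no genes from the lowest 1 in 3, all probe sets, averaged probe sets, trended and robust eBayes, weighted arrays, the replicate number as a block and each array left out.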

Additional observations from a re-analysis of the deposited data

Results flagged for a closer look

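In flox/+ glands Nr4a1 was far lower in replicate 4 than in the other 3. It read 218 there and 355 in the next lowest gland, a gap on the log2 scale that was 0.880 of the range of the 4 controls, above the critical value of 0.829 in Dixon's test. Dusp1, at 390, Egr2, at 181, and Egr1, at 155, were also lowest among the controls in that gland. The mean z-score of 13 heat shock genes was -1.50 there, beside -0.27 to 0.88 in the other 7 glands, and its part in these values was not tested. The test was made on 20 groups of 4 glands, 10 members in each genotype, and chance gives about 1 such value in 20, so that 1 is the number chance gives. The high value of Nr4a1 in flox/flox replicate 1 did not pass it.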

How the results depend on the processing

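No member passed the limma threshold under any of the 18 alternatives, over 178 values, with a lowest adjusted p of 0.262, and 175 of those values kept their sign. The exceptions were single glands left out: with 1 array left out at a time the difference of Egr1 ran from -0.35 to 0.10 and that of Nr4a1 from -0.48 to 0.041. Over all alternatives the difference ran from -0.13 to -0.026 for Fos (nearest 0 without flox/flox replicate 1), from 0.034 to 0.18 for Jund (without flox/+ replicate 4 and without flox/flox replicate 4), from -0.17 to -0.073 for Junb (without flox/+ replicate 3 and without flox/+ replicate 4) and from -0.74 to -0.094 for Egr2 (without flox/+ replicate 4 and without flox/flox replicate 1). It ran from 0.13 to 0.25 for Jun, from -0.20 to -0.10 for Egr3 and from 0.08 to 0.16 for Atf3. Fosb stayed between -0.27 and -0.17. Its values did not overlap as deposited or after median centring, and leaving out an array cannot make separate values overlap. With 1 array left out, the number of members without overlap ran from 1 to 2. Jun joined without flox/+ replicate 3 and Egr3 without flox/flox replicate 4, each having overlapped through that gland alone. The share of all genes without overlap in those fits is not given here. The number of members in the top 1% by SD within genotype, 3, became 1 with all probe sets, Egr2, and 2 with an offset of 1, Egr2 and Nr4a1, and ran from 1 to 3 with 1 array left out. The count over all genes, 8, became 18 with median centring, 4 with an offset of 1, 19 with an offset of 64, 3 without the lowest 1 in 3 genes, 1 with all probe sets and 17 with the trended and robust variance, and ran from 2 to 21 with 1 array left out. With the replicate number as a block it was 8, with 0 members among them, and 3 of the 8 arrays deviated most like the array of the other genotype with its own number. The cause of these shifts was not tested. The table holds no detection calls, so signal over background limits the dim members, and for Egr1, Egr2 and Nr4a1 the intervals reach at least 1.32-fold upward and 0.591-fold downward.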
